A study of Mus musculus with 8 samples.

Results

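Nuclei with the signature proposed for glomerular endothelium, the fenestrated capillary lining of the kidney's filtering units, were taken from 8 mouse kidney libraries measured by single-nucleus RNA-seq. A nucleus was selected when it had at least 1 UMI (unique molecular identifier, 1 counted transcript molecule) of at least 2 of the 4 endothelial genes Flt1, Ptprb, Emcn and Pecam1, at least 1 UMI of Ehd3, at least 2 UMIs of Ehd3, Gata5 and Smad6 together, and none of Plvap. The rule found 359 nuclei among 81391 that passed quality control, for which a nucleus needed 500 genes and 800 UMIs, of which no more than 2% could be mitochondrial. The nuclei were thus chosen by their own counts of Ehd3, Gata5, Smad6, Plvap and the 4 endothelial genes, whose levels are given only as a description. They are called the selected nuclei here, because most had no UMI of 5 glomerular genes, as given below.

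All mice were males on a C57BL/6J background under 12 h of light and 12 h of dark, and were killed at 14 weeks of age. Control mice (Ctrl) were Bmal1lox/lox. Their cKOt littermates were Bmal1lox/lox/Pax8-rtTA/LC-1, which lose Bmal1 (Arntl), a core activator of the circadian clock, in renal tubules, and not by design in endothelium. Both genotypes drank doxycycline at 2 mg/ml for 2 weeks from 8 weeks of age. Kidneys were taken at ZT4, in the light phase, or at ZT16, in the dark phase, with 2 libraries for each of the 4 groups.

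Glomerular endothelial cells are flat, perforated cells that lie on the basement membrane opposite the podocytes and depend on podocyte VEGF acting through its receptor Kdr. Mature fenestrae of these cells lack the diaphragm protein PLVAP, which peritubular capillaries keep. Ehd3 encodes a membrane-trafficking ATPase, Gata5 a zinc finger transcription factor and Smad6 an inhibitor of BMP signalling, and all are known markers of this endothelium.

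The libraries held 8758 to 10975 nuclei and 36548873 to 54500820 UMIs after quality control. Selected nuclei numbered 41 and 44 in Ctrl at ZT4, 57 and 54 in Ctrl at ZT16, 30 and 40 in cKOt at ZT4, and 40 and 53 in cKOt at ZT16. Summed over these nuclei a library had 73722 to 236343 UMIs, and the median selected nucleus had 2490. No barcode was selected in more than 1 library, 6 of the 359 also occurred among the other nuclei of another library, and pairs of libraries shared 18 to 42 barcodes among all nuclei. Nuclei with a UMI of at least 4 of 10 proximal tubule genes, called proximal tubule nuclei here, numbered 39963, at a median of 5157 UMIs. Ehd3 had a UMI in 4.52% of them. Endothelial nuclei were not left out of this set, and Emcn and Plvap had a UMI in 19.3% and 10.8% of it. A single Ehd3 UMI can be background, at a rate that this set does not fix. Of the selected nuclei, 136 had exactly 1 Ehd3 UMI.

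Most selected nuclei carried several endothelial transcripts, and most carried none of the 5 glomerular genes Gata5, Tbx3, Pi16, Plat and Sost. Outside the genes of the rule, 334 of 359 had at least 5 UMIs of 12 endothelial genes such as Cdh5, Tie1 and Eng. Of the genes of the rule, Smad6 had a UMI in 199 nuclei (55.4%), while Gata5 was found in 10, with 13 UMIs in all. Tbx3, a T-box transcription factor, had a UMI in 47 nuclei, the peptidase inhibitor gene Pi16 in 26, and the Wnt antagonist Sost in 4. The plasminogen activator gene Plat had one in 84, Nostrin in 102 and Mapt in 115, and other nuclei also expressed all of these. At least 2 of Gata5, Tbx3, Pi16 and Sost were present in 22 nuclei, and 241 nuclei (67.1%) had none of these genes and no Plat. Absence of a UMI at this depth does not show absence of the transcript.

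Plvap set most of the count. Without the condition on Plvap the rule took 1733 nuclei, of which 1374 carried Plvap. Those 1374, called the Ehd3 and Plvap nuclei here, had Gata5 in 0 nuclei, which allows a share of up to 0.218%, and the 7768 endothelial nuclei with Plvap and no Ehd3 also had 0, which allows up to 0.0386%. The rule itself used Gata5, so this contrast is a description. At the lower limit of the rule, 219 selected nuclei had exactly 2 UMIs of Ehd3, Gata5 and Smad6 together, and 451 nuclei just outside it had 1. Summed over each set, Plat was at 119 CPM (UMIs scaled to a common library total) just inside and 69.5 CPM just outside, while Tbx3 was at 30.1 and 33.1 CPM.

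Glomerular genes occurred together in a larger share of the nuclei with Epha6, an ephrin receptor gene that the rule did not use. Epha6 was found in 31 selected nuclei, between 2 and 5 in every library. Of these 31 nuclei, 15 had Tbx3, 14 had Pi16 and 19 had Plat. Of the 328 others, 32 had Tbx3, 12 had Pi16 and 65 had Plat. At least 1 of these 3 genes was present in 87.1% of nuclei with Epha6 and in 26.8% of those without, at median depths of 2685 UMIs in nuclei with Epha6 and 2246 in the 265 nuclei with no Epha6 and fewer than 3 stromal UMIs, described next. At least 2 of the 3 genes were present in 16 of the 31 nuclei with Epha6 (51.6%) and in 17 of the 328 others (5.18%). Gata5, by which the rule could choose a nucleus and which is therefore left out of these counts, was in 8 and 2. The nuclei were split by Epha6 after its values were seen, and no test was made of the split.

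**Figure D1:**
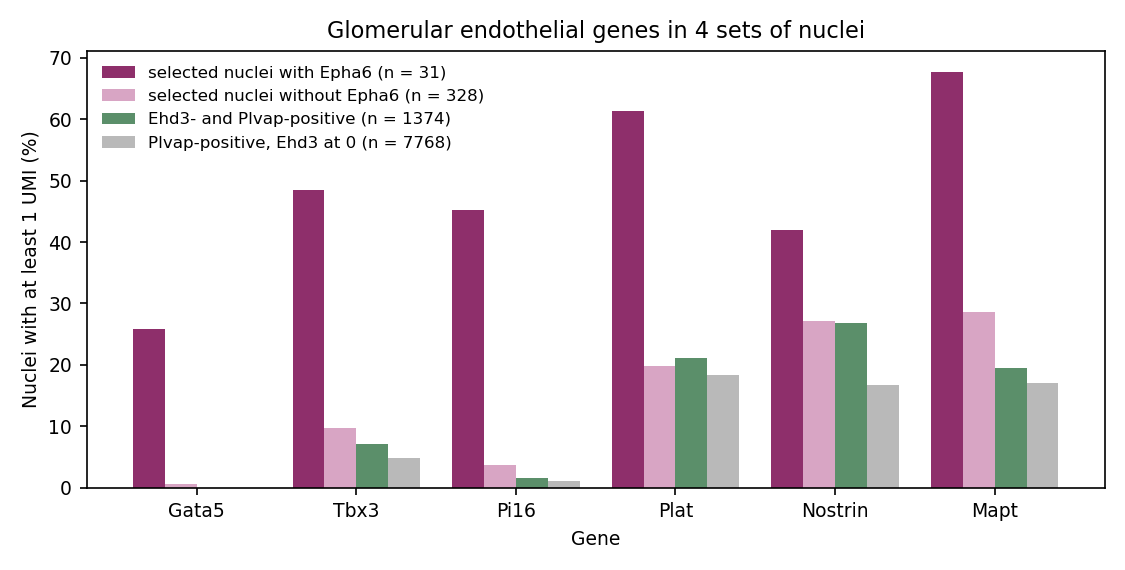
Share of nuclei with at least 1 UMI (y axis, percent) for 6 genes known from glomerular endothelium (x axis). Bars are selected nuclei with Epha6, selected nuclei without Epha6, Ehd3 and Plvap nuclei, and Plvap-positive nuclei with Ehd3 at 0. Tbx3 stood at 48.4% in the first set and 9.76% in the second, and Gata5 is a gene of the rule.

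Other genes led the Epha6-positive nuclei as well. Tbx3os1, a noncoding RNA listed beside Tbx3 by name, had a UMI in 10 of these nuclei and in 1.52% of the other selected nuclei. Trpm3, a cation channel gene, was in 15 of them and in 5.79% of the others, Slco2a1, a prostaglandin transporter gene, in 19 and in 9.76%, and Gm30382, a lncRNA, in 18 and in 15.9%. Of the arterial genes, Efnb2 was in 71.0% of these nuclei and in 45.4% of the others, Sox17 in 32.3% and 15.9%, and Gja5, a connexin gene, in 4 and 2 nuclei, with 12 of its 14 UMIs in the 4. They are picked from an arterial list of 12 genes, whose other members are not given by Epha6. The values thus do not show that the list as a whole was higher in nuclei with Epha6. A single Epha6 UMI can be background: 1.66% of 65227 nuclei outside the endothelial gate had one, at a median of 4109 UMIs, and so did 1.83% of the 7768 endothelial nuclei with Plvap and no Ehd3, at a median of 2236. Of 4679 endothelial nuclei with neither Ehd3 nor Plvap, 3.12% had at least 1. At least 2 Epha6 UMIs were found in 25 selected nuclei (6.96%), in 57 of the nuclei with neither gene (1.22%), in 29 of those with Plvap and no Ehd3 (0.373%) and in 0.0583% of the nuclei outside the gate. Epha6 together with Gata5, Tbx3 or Pi16 was found in 21 selected nuclei and in 38 of the 4679 with neither Ehd3 nor Plvap. The same held for 16 of the 7768 and 50 of the 65227, so that such nuclei were not confined to the selection. In CPM of the selected nuclei, Epha6 was 298 and 212 in the Ctrl libraries at ZT4, 26.8 and 108 in Ctrl at ZT16, 109 and 210 in cKOt at ZT4, and 663 and 127 in cKOt at ZT16. The first cKOt library at ZT16 gave 103 of the 260 Epha6 UMIs, and the groups overlapped.

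A second set of selected nuclei carried transcripts of stromal cells. At least 3 UMIs of 12 stromal genes, among them Pdgfrb, Lama2 and Col14a1, occurred in 65 nuclei, and 46 of these had at least 20. These 12 genes were chosen after they were seen among the leading genes. Mesangial, pericyte and muscle genes, 8 in all, had at least 3 UMIs in 33 selected nuclei. Of these 8, Itga8 had 56 UMIs in the 65 stromal nuclei and 2 in the other 294. Which cell type the stromal transcripts came from was not tested. The 65 nuclei had a median of 4434 UMIs, with 10 UMIs of the 12 endothelial genes outside the rule and 38 of the stromal genes, against 2294 UMIs, 15 endothelial and 0 stromal UMIs in the other 294. Each library had 4 to 13 such nuclei. Both kinds of transcript were thus counted under 1 barcode. Per the methods, DAPI-stained nuclei had been sorted with the aim of removing doublets and clumps and limiting free RNA, and whether these were doublets or nuclei with free RNA was not tested.

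**Figure D2:**
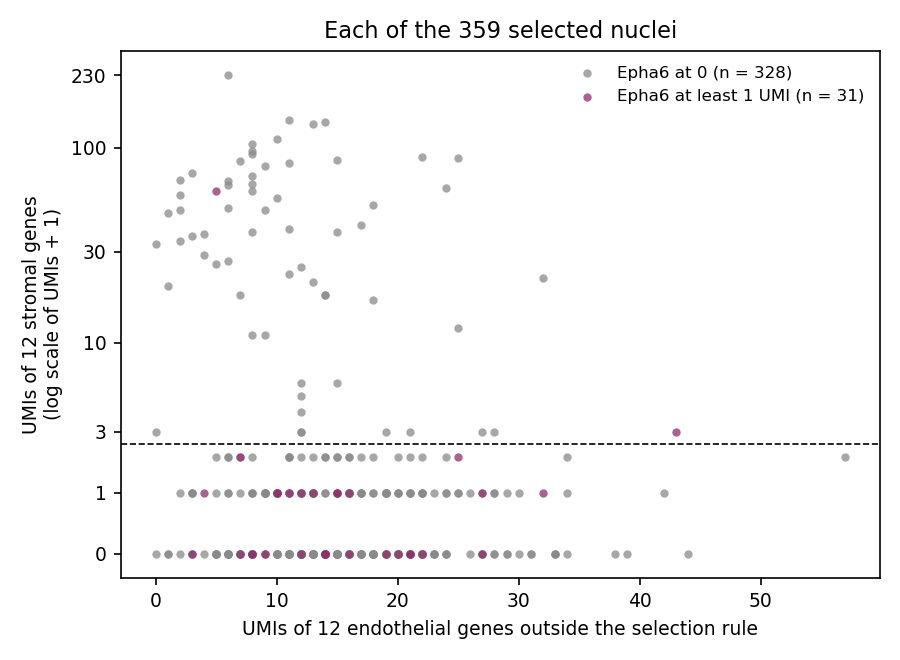
Each point is 1 of the 359 selected nuclei, by UMIs of 12 endothelial genes outside the rule (x axis) and UMIs of 12 stromal genes (y axis, log scale of UMIs + 1). The dashed line separates nuclei with fewer than 3 stromal UMIs from the 65 above it, and 31 nuclei with Epha6 are coloured.

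Most of the genes that stood highest in the selected nuclei had lower ratios without the stromal nuclei. Levels were compared with Plvap-positive endothelial nuclei with Ehd3 at 0, as CPM of summed UMIs in each library. As Plvap and Ehd3 chose both sets, this is a description with no test. Among 12281 genes with at least 100 UMIs in either set, 167 (1.36%) were higher in the selected nuclei in all 8 libraries and 241 (1.96%) were lower, with a median ratio of 0.993. Of the 20 genes with the highest ratio, Epha6 led at 18.4, followed by the soluble guanylate cyclase gene Gucy1a2 at 6.83, and the list went on with the stromal genes Ak5, Frem1, Cdh11, Lama2 and Col14a1. Of these 20 genes, 9 belong to the 12 stromal genes. The comparison was repeated with nuclei of at least 3 stromal UMIs left out of both sets, 65 selected nuclei and 446 of the 7768 Plvap-positive ones, and all ratios without the stromal nuclei below are of this kind. Of the 20, Epha6 was then still higher in all 8 libraries, at 25.6, and the other 19 were not. They had ratios from 0.413 (Daam2) to 2.07 (Col14a1), of which 12 were above 1, with Gucy1a2 at 0.935 and Cdh11 at 0.513. As the leading genes supplied the stromal list, a lower ratio of its members is set by the choice of nuclei.

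**Figure D3:**
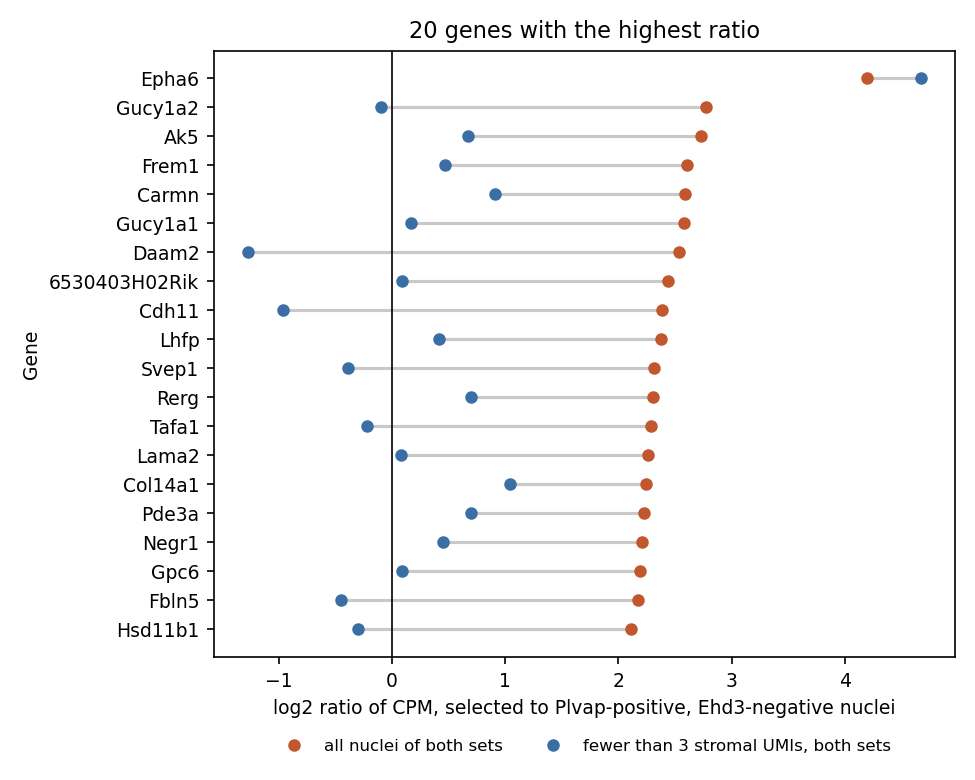
Ratio of CPM in selected nuclei to that in Plvap-positive, Ehd3-negative nuclei (x axis, log2) for the 20 genes with the highest ratio (y axis), over all nuclei of both sets and over the nuclei of both sets with fewer than 3 stromal UMIs. Epha6 rose from 18.4 to 25.6 as a ratio and the other 19 were lower without the stromal nuclei, 7 of them below a log2 ratio of 0.

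Several glomerular genes that the rule did not use were higher, both with and without the stromal nuclei. Pi16 averaged 40.3 ± 40.0 CPM (SD, n = 8 libraries) in the selected nuclei and 4.93 CPM in the Plvap-positive nuclei, and was higher in 8 of 8 libraries. Nostrin, which binds endothelial nitric oxide synthase, averaged 141 ± 41.9 CPM and 81.6 CPM, and was also higher in 8 of 8, but it had a UMI in 26.8% of the Ehd3 and Plvap nuclei, beside 28.4% of the selected nuclei. Tbx3, at 65.8 ± 41.5 and 21.0 CPM, and Plat, at 177 ± 75.5 and 104 CPM, were higher in 7 of 8. Plat had a UMI in 21.2% of the Ehd3 and Plvap nuclei and 18.3% of the Plvap-positive nuclei, beside 23.4% of the selected nuclei. Without the stromal nuclei the ratios were 10.3 for Pi16 and 1.92 for Nostrin, higher in 8 of 8 libraries, and 3.49 for Tbx3 and 2.04 for Plat, higher in 7 of 8. The 31 nuclei with Epha6 stood far above the 265 with no Epha6 and fewer than 3 stromal UMIs: summed over each set, Tbx3 was at 299 and 33.8 CPM, Plat at 701 and 124 CPM, Pi16 at 196 and 16.3 CPM, and Nostrin at 308 and 129 CPM. Over the 10 genes of the glomerular list, 9 had enough counts for a ratio, with a median of 1.71 over all nuclei and 1.80 without the stromal nuclei, beside the median of 0.993 over all genes. Of these 9, 2 were higher and 0 lower in 8 of 8 libraries, both with and without the stromal nuclei. Ehd4, of this list, had a UMI in 60.2% of the selected and 67.7% of the Plvap-positive nuclei, and Meis2 in 99.2% of both. Cyp26b1 had one in 15.9% and 10.9%, and Lpl in 17.5% and 15.4%. Mapt was higher in 6 of 8 libraries, at 226 ± 80.1 and 130 CPM, but reached 405 CPM in proximal tubule nuclei. The ratios over all nuclei cover 41 (Pi16) to 287 (Mapt) UMIs of the selected nuclei, and that of Pi16 without the stromal nuclei covers 34.

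The VEGF receptor gene Kdr was higher and the capillary genes Igf1 and Nlgn1 were lower, while their lists were mixed. Kdr averaged 709 ± 100.2 CPM against 567.7 CPM and Nrp1, a VEGF co-receptor gene, 1693 ± 383 against 1169 CPM, both higher in 8 of 8 libraries. Flt1, another VEGF receptor gene and one of the rule, was lower in 6 of 8, at a ratio of 0.892, which turned to 1.08 without the stromal nuclei, higher in 5 of 8. Of 13 VEGF genes with enough counts, 2 were higher and 2 lower in 8 of 8 libraries, with a median ratio of 1.07. The G-protein-coupled receptor gene Adgrl4 was lower in all 8, at 1111 ± 407 against 1863 CPM, as was the angiopoietin receptor gene Tek at 590 ± 172 against 988 CPM. Kdr was at 857 CPM in the Ehd3 and Plvap nuclei, above its mean in the selected nuclei, and Nrp1 had a UMI in 93.8% of those nuclei, beside 90.5% of the selected ones. Igf1, at 57.5 ± 44.6 against 300.2 CPM, and Nlgn1, at 43.9 ± 66.8 against 469 CPM, were lower in 8 of 8 libraries. Summed over the 4679 endothelial nuclei with neither Ehd3 nor Plvap they were also low, at 68.5 and 74.6 CPM, beside 55.9 and 48.7 CPM summed over the selected nuclei, so that the low level was not particular to the selected nuclei. Both are listed among capillary and venous genes, 8 in all, of which 3 were lower and 0 higher in all 8 libraries, with a median ratio of 0.880.

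Genes of arteries and vasa recta, another endothelial class, had a higher summed level in the selected nuclei with the stromal nuclei included, although few did so in every library. Of 12, 8 had enough counts, with a median ratio of 1.49 both with and without the stromal nuclei, and 2 were higher and 0 lower in 8 of 8 libraries, against 1 and 1 without those nuclei. The list summed to 615.6 to 1082 CPM in the selected nuclei and to 366 to 564 CPM in the Plvap-positive nuclei, and the part of arterial nuclei in the results was not tested. No such sum was taken without the stromal nuclei. Fbln5, of this list, was at 711 CPM summed over the 65 stromal nuclei and 16.8 CPM over the other 294. Sox17, an arterial transcription factor gene, was higher in 8 of 8 libraries both with the stromal nuclei, at a ratio of 1.46, and without them, at 1.81. Efnb2, an arterial ephrin gene, was higher in 7 of 8 libraries both with and without them, and had a UMI in 47.6% of the selected nuclei and 52.3% of the Ehd3 and Plvap nuclei. Fbln5, an elastic fibre gene, changed from a ratio of 4.52 to 0.733, and Notch3, a receptor of mural cells, from 2.59 to 0.632. Podocyte genes were low: Nphs1 and Ptpro had 4 UMIs each in all the selected nuclei. Their 8-gene list summed to 315 to 482 CPM in the selected nuclei and to 436 to 673 CPM in the Plvap-positive nuclei, mostly from Podxl, which endothelium also expresses. Over all nuclei 5 of these genes were lower in 8 of 8 libraries, at a median ratio of 0.431. Without the stromal nuclei 0 were, and the median ratio was 1.03. Proximal tubule genes summed to 1686 to 3811 CPM and distal tubule genes to 970.5 to 4229 CPM, and their part in the results was not tested.

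Vasoactive and matrix genes that stood higher also had lower ratios or levels without the stromal nuclei. Of 20 vasoactive genes with enough counts, 3 were higher in 8 of 8 libraries, Gucy1a1, the phosphodiesterase gene Pde3a and the angiotensin receptor gene Agtr1a, at ratios of 5.98, 4.68 and 2.80, which were 1.12, 1.62 and 0.772 without the stromal nuclei. Of 19 basement membrane genes, Col18a1 was higher in 8 of 8, at 61.2 ± 20.1 against 35.0 CPM. Summed over each set, it was at 109 CPM in the 65 stromal nuclei and 40.3 CPM in the other 294. The laminin genes Lama1, Lama4 and Lama5 were lower in 8 of 8, the second at 227 ± 45.9 against 312 CPM. Lama1 rested on few UMIs, and had a UMI in 5.29% of the selected nuclei and 4.66% of the Plvap-positive nuclei. Of 19 junction and caveola genes, Nostrin was higher and the adhesion genes Jam2 and Jam3 were lower in 8 of 8, at ratios of 0.596 and 0.731. Among coagulation and complement genes F8 was lower in 8 of 8. None of the 23 BMP and TGF-beta genes with enough counts, the pathway that Smad6 inhibits, lay on 1 side in all 8 libraries, and their median ratio was 1.01. The endothelial transcription factor gene Erg was lower in 8 of 8, at 232 ± 44.1 against 354 CPM, and the nuclear receptor gene Rora was higher, at a ratio of 1.49 that became 1.10 without the stromal nuclei. Of the genes lower in 8 of 8 that are named here, Lama1, Erg and Adgrl4 were lower in 8 of 8 without the stromal nuclei too, Lama4, Jam3 and Tek in 7, F8 in 6, and Lama5 and Jam2 in 5. Lama1 then rested on 11 UMIs of the selected nuclei.

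Sh3gl3, Mmrn1, Rims1 and Aff2 had 0 UMIs in the selected nuclei, and averaged 15.2, 7.25, 5.96 and 5.68 CPM in the Plvap-positive nuclei. They were named for the lowest ratios among genes with at least 100 UMIs in the Plvap-positive nuclei and lower in all 8 libraries. Their 0 UMIs were thus part of how they were chosen. For a gene not chosen in this way, 0 UMIs allow up to 2.40 CPM over the UMIs of the selected nuclei, mitochondrial genes left out. Without the stromal nuclei, Gm30382 stood at a ratio of 2.78, the semaphorin genes Sema5a and Sema6d at 2.68 and 2.10, Dkk2, which modulates Wnt signalling, at 2.09, Npr3, the natriuretic peptide clearance receptor gene, at 1.72, with a UMI in 39.6% of the selected nuclei and 46.4% of the Ehd3 and Plvap nuclei, and Esm1, which encodes a secreted endothelial proteoglycan, at 1.61. These genes were named by the ratio rule on the remaining nuclei, a choice made after the stromal nuclei had been seen.

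The share of nuclei that were selected was higher in all 4 libraries of ZT16 than in those of ZT4. It was 0.414% and 0.441% in Ctrl at ZT4, 0.535% and 0.503% in Ctrl at ZT16, 0.289% and 0.399% in cKOt at ZT4, and 0.457% and 0.483% in cKOt at ZT16. The means were 0.494% ± 0.0331 (SD, n = 4) at ZT16 and 0.386% ± 0.0668 at ZT4, with no overlap, and an exact two-sided permutation test of 4 against 4 libraries gave p = 0.0286, the smallest it can give, and 0.0571 after adjustment over 2 comparisons. Within genotypes the difference was 0.0913 percentage points in Ctrl and 0.126 in cKOt. The genotype difference did not pass the same exact permutation test (p = 0.257), at 0.407% ± 0.0860 in cKOt and 0.473% ± 0.0554 in Ctrl, a difference of −0.0664 percentage points that was −0.0272 without the first cKOt library at ZT4. When nuclei were thinned to 1500 UMIs the time difference was 0.0737 percentage points (exact permutation p = 0.171). The median selected nucleus had 2694 ± 338 UMIs at ZT16 and 2334 ± 396 at ZT4, and the part of depth in the share was otherwise not tested.

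**Figure D4:**
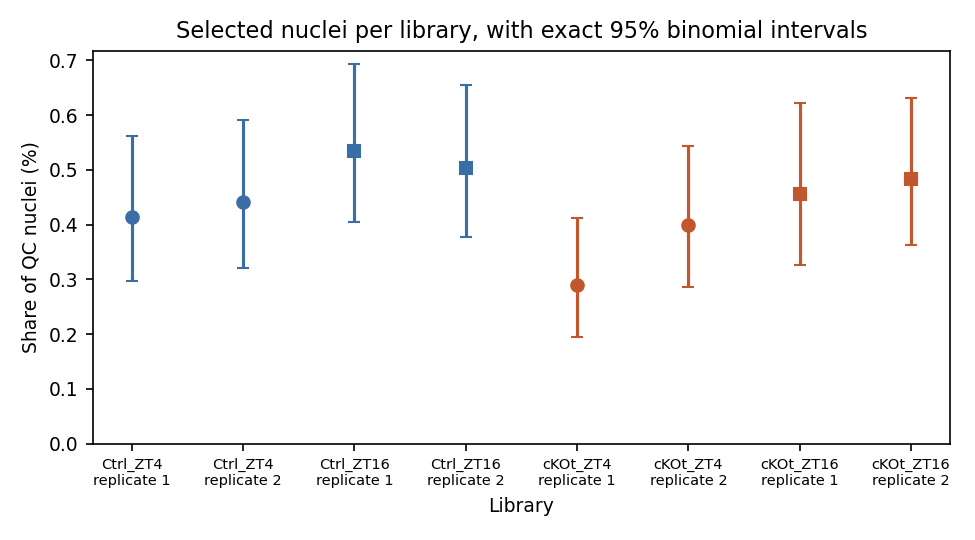
Share of quality-controlled nuclei that were selected (y axis, percent) in each of the 8 libraries (x axis), with exact 95% binomial intervals that cover counting error only. Circles are ZT4 and squares ZT16, and the 4 ZT16 libraries, from 0.457% to 0.535%, lie above the 4 ZT4 libraries.

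Sums over the selected nuclei were compared to see whether genes differed between time points and between genotypes. Counts were tested with edgeR's quasi-likelihood test with Benjamini-Hochberg adjustment over all genes tested, at an adjusted p under 0.05. Averaged over genotypes, 2 of 6582 genes (0.0304%) differed between time points, and both were lower at ZT16. Within Ctrl 0 of 6055 genes and within cKOt 0 of 5454 passed, with 382 and 292 at an unadjusted p under 0.05 by edgeR and 92 and 69 by DESeq2, which also called 0 in both. Genes with fewer than 100 counts had a median standard error of 0.475 log2 units, so that 2 standard errors of the median such gene were 0.949 log2 units. The adjusted threshold asks for more than 2 standard errors, so that larger differences could also miss it.

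Ednrb, the endothelin B receptor gene, was the first. It was at 324 and 212 CPM in the Ctrl libraries at ZT4, 89.5 and 88.7 CPM in Ctrl at ZT16, 291 and 406 CPM in cKOt at ZT4, and 122 and 105 CPM in cKOt at ZT16. All 4 ZT4 libraries were above all 4 ZT16 libraries. The log2 difference, ZT16 minus ZT4, was −1.68 ± 0.26 (SE, n = 8 libraries) with an edgeR adjusted p of 0.0101. In the Plvap-positive nuclei the same fit gave −0.61 ± 0.10 (edgeR adjusted p = 0.0109), from 372 to 422 CPM at ZT4 and 226 to 284 CPM at ZT16, and in the Ehd3 and Plvap nuclei Ednrb averaged 407 CPM at ZT4 and 183 CPM at ZT16. The difference between the selected and the Plvap-positive nuclei in this change was −1.05 ± 0.26 (edgeR adjusted p = 0.967). Without the stromal nuclei the log2 difference of Ednrb was −1.62 (edgeR adjusted p = 0.0280), with at least 2 Ehd3 UMIs it was −1.88 and missed the threshold (adjusted p = 0.299), and it was also missed with equal numbers of nuclei per library (adjusted p = 0.0988) and when any of 6 libraries was left out, as given under the processing alternatives.

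Nr1d2, which encodes the clock repressor REV-ERB beta, was the second. It was at 196 and 206 CPM in Ctrl at ZT4, 35.8 and 82.4 CPM in Ctrl at ZT16, 218 and 145 CPM in cKOt at ZT4, and 32.2 and 21.1 CPM in cKOt at ZT16. The groups by time did not overlap, in either genotype. The log2 difference was −2.36 ± 0.36 (SE, n = 8 libraries) with an edgeR adjusted p of 0.0101, and −1.67 ± 0.13 in the Plvap-positive nuclei (edgeR adjusted p = 1.5e-05). Without the stromal nuclei it was −3.12 (edgeR adjusted p = 0.0159), while with at least 2 Ehd3 UMIs the adjusted p was 0.0886 and leaving out any of 6 libraries also ended the call. Over all 6581 genes tested for a time difference that differed between the sets of nuclei, 0 passed by edgeR, with 286 at an unadjusted p under 0.05 and 190 by DESeq2, which called 0.

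**Figure D5:**
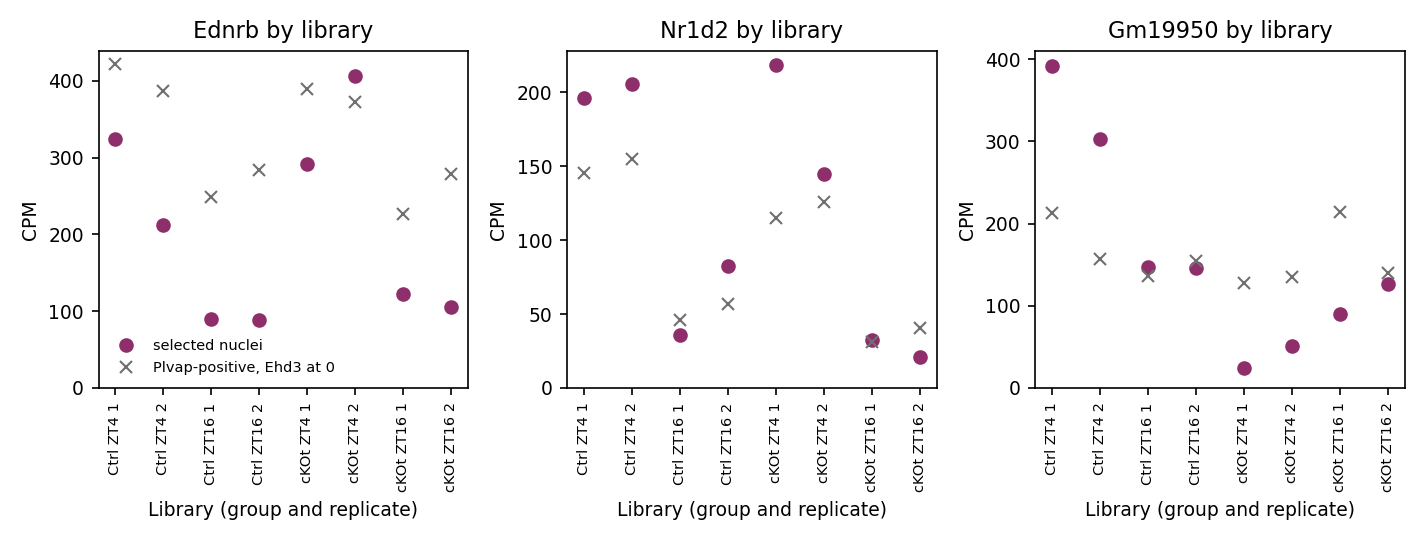
CPM (y axis) of Ednrb, Nr1d2 and the lncRNA Gm19950 in each library (x axis), in the selected nuclei and in Plvap-positive nuclei with Ehd3 at 0. Ednrb and Nr1d2 were lower in every ZT16 library than in every ZT4 library in the selected nuclei.

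The promoters of both genes are shown because the change was in their RNA. They are the 300 bases around the start from 250 before to 50 after it, on GRCm38.p6 from RefSeq, minus strand, at chr14:18239057-18239356 for Nr1d2 and chr14:103843652-103843951 for Ednrb. Capitals mark the GC box GGGCGG.
Nr1d2: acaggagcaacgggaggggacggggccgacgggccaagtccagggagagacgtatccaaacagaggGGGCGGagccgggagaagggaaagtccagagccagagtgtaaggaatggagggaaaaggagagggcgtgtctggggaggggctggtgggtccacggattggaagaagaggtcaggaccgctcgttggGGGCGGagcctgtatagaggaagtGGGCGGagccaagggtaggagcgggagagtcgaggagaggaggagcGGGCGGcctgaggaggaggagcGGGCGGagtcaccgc
Ednrb: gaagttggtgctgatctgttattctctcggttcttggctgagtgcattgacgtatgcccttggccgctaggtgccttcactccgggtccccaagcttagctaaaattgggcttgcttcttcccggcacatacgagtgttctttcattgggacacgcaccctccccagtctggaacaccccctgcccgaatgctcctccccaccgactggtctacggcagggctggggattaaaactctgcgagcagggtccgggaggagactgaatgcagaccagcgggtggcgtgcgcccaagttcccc
The GC box was found 5 times in the Nr1d2 window and 0 times in the Ednrb window, searching both strands, and 35.7% of 32851 promoters of this length hold it. The E-box CACGTG, held by 7.15% of promoters, the D-box TTATGNAA, by 3.38%, and the ROR elements TAGGTCA and TGGGTCA, by 2.61% and 3.98%, were not found in either window.

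The clock genes as a list of 20 had 12 tested between time points, of which 1, Nr1d2, was lower and 0 higher, with a median log2 difference of 0.07 beside 0.01 over all genes. Others were at low counts and are given as values: Nr1d1, the paralog of Nr1d2, had 18 UMIs, and averaged 29.0 CPM at ZT4 and 1.12 CPM at ZT16, and Dbp, an activator of D-box genes, also had 18 UMIs and averaged 34.5 CPM at ZT4 and 0 at ZT16. The activator genes Clock and Npas2 gave 0.23 ± 0.25 and 1.03 ± 0.45 log2 units (SE; edgeR adjusted p = 0.91 and 0.78), and the period genes Per2 and Per3 gave 1.30 ± 0.61 and 0.18 ± 0.53 (edgeR adjusted p = 0.80 and 0.97). Of these, Npas2 ran from 0.66 to 3.39 over left-out libraries, the latter without the second Ctrl library at ZT4, and Per2 from 0.59 to 3.69, without the second and the first cKOt library at ZT4. Cry2 gave −0.18 ± 0.65, Tef −0.55 ± 0.35, Hlf −0.19 ± 0.39, Bhlhe40 −0.04 ± 0.42 and Rora −0.19 ± 0.18 (all edgeR adjusted p over 0.8).

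Arntl, the gene deleted in tubules, did not pass between genotypes. It was at 25.6 and 34.3 CPM in Ctrl at ZT4, 107 and 50.7 CPM in Ctrl at ZT16, 158 and 79.7 CPM in cKOt at ZT4, and 180 and 142 CPM in cKOt at ZT16, with a log2 difference, cKOt minus Ctrl, of 1.48 ± 0.38 (SE, n = 8 libraries; edgeR adjusted p = 0.37). The cKOt mean was above the Ctrl mean, and the libraries overlapped. Proximal tubule nuclei, which the deletion targets, were at 18.6 to 147 CPM in Ctrl and 176 to 267 CPM in cKOt. As reads may fall outside the deleted part of the gene, these counts do not check the deletion.

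Over all genes, 2 of 6582 (0.0304%) passed between time points, so that 0 in a short list lies near that share. A list with 0 is thus not shown to be unchanged. In the other lists no gene passed between time points. This held for 0 of 11 pan-endothelial, 0 of 9 glomerular, 0 of 12 VEGF, 0 of 6 Notch, 0 of 21 BMP and TGF-beta, 0 of 13 junction and caveola, 0 of 16 basement membrane, 0 of 10 coagulation and complement, 0 of 19 endothelial transcription factor, 0 of 9 glucocorticoid and 0 of 12 heat and cold response genes tested. It also held for 0 of 8 capillary and venous, 0 of 6 arterial, 0 of 6 angiopoietin and Tie, 0 of 10 glycocalyx, 0 of 10 flow response, 0 of 7 leukocyte adhesion, 0 of 9 lipid handling and 0 of 8 immediate early genes, while 1 of 14 vasoactive genes, Ednrb, was lower. None of the immune or cell cycle genes had counts enough to be tested. Genes whose ZT16 libraries all lay above the ZT4 libraries were 193 of 6582 (2.93%), and those all below were 68 (1.03%). Among the heat and cold genes, 3 of 12 tested did so: the chaperone genes Hspa8, at 94.1 to 158 CPM at ZT4 and 197 to 361 CPM at ZT16, Hspa5, at 57.2 to 94.1 and 122 to 196 CPM, and Chordc1, at 51.1 to 85.8 and 93.9 to 120 CPM. Their adjusted p by edgeR were 0.514, 0.591 and 0.836. The ZT16 libraries also all lay above for 2 of 10 proximal tubule, 2 of 11 pan-endothelial and 2 of 21 BMP and TGF-beta genes tested. Tsc22d3, a glucocorticoid target, was at 17.0 to 48.5 and 58.0 to 103 CPM (log2 difference 1.62 ± 0.44, edgeR adjusted p = 0.514), and Npr3, Adgrl4 and Ly6c1 also did not overlap (edgeR adjusted p = 0.514 for each).

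Between genotypes, 1 of 4888 genes (0.0205%) passed at ZT4, 0 of 6307 at ZT16, 0 of 6582 averaged over times, and 0 of 6582 for the interaction of genotype and time. Unadjusted p under 0.05 were found for 309 genes at ZT16, 405 averaged and 332 for the interaction by edgeR, and for 64, 118 and 87 by DESeq2. The gene was Gm19950, a lncRNA, lower in cKOt at ZT4 with a log2 difference of −3.02 ± 0.45 (SE, n = 4 libraries; edgeR adjusted p = 0.0130). It was at 392 and 303 CPM in Ctrl at ZT4, 148 and 146 CPM in Ctrl at ZT16, 24.3 and 50.7 CPM in cKOt at ZT4, and 90.1 and 127 CPM in cKOt at ZT16. The 2 cKOt libraries at ZT4 rested on 2 and 7 UMIs. In proximal tubule nuclei Gm19950 was at 494 to 843 CPM, with means of 698 CPM in Ctrl and 556 CPM in cKOt, and in the Plvap-positive nuclei its genotype difference at ZT4 was −0.48 ± 0.20 (edgeR adjusted p = 0.612). DESeq2 called 0 genes at ZT4, with 98 at an unadjusted p under 0.05. The call of Gm19950 ended without the stromal nuclei (log2 −2.69, edgeR adjusted p = 0.128), with Plvap not used (−0.96, adjusted p = 0.685) and when any of its 4 libraries was left out, which leaves 1 library in a group, so that the spread is taken from the other groups. Tubule RNA among the selected nuclei was not tested as its source.

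Genes whose cKOt libraries all lay below the Ctrl libraries were 148 of 6582 (2.25%), and all above were 63 (0.957%). All cKOt libraries lay below for 2 of 10 proximal tubule genes tested. So they did for 1 of 21 BMP and TGF-beta and 1 of 12 heat and cold genes, and for 0 in the other lists. These genes are given as values, beside 2.25% over all genes, and none of them passed between genotypes. The proximal tubule genes were Hnf4a and Slc13a3, at 82.4 to 139 against 14.5 to 70.8 CPM and at 82.4 to 148 against 24.3 to 43.5 CPM (log2 −1.19 ± 0.41 and −1.71 ± 0.39, edgeR adjusted p = 0.646 and 0.236; for Hnf4a −0.76 without the second cKOt library at ZT4 and −0.02 with Plvap not used, and for Slc13a3 −0.76 with Plvap not used). The others were Ltbp1, which stores TGF-beta in the matrix, and Hsf1. Proximal tubule UMIs averaged 7.04 ± 1.70 per selected nucleus in cKOt and 11.3 ± 3.91 in Ctrl (n = 4, exact permutation p = 0.143).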

How the data were processed

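UMI counts per gene and barcode were deposited by the authors without normalization. Per the submitters' processing notes and file header, Cell Ranger 7.1.0 and bcl2fastq 2.20 were used; an mm10 reference is named in the methods, GRCm39 in the build field. The handling of intronic reads and strand was not stated. The selected nuclei, gene lists and tests were chosen with earlier results of these data known.

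UMIs of selected nuclei were summed per library, mitochondrial genes left out. A gene was tested when both libraries of 1 group of the contrast reached 5 counts, with edgeR 4.0.16 (TMM, quasi-likelihood, 1 model of the 4 groups), adjusted by Benjamini-Hochberg over all genes tested, with DESeq2 1.42.0 as the alternative. Doublets were kept. Shares were compared by exact permutation of libraries. The pipeline was tested on simulated data. Named genes were those of the fixed lists, up to 10 called genes per contrast and direction, and the genes with the 20 highest and 10 lowest ratios. Some listed genes are not reported here. The libraries of a group came from replicate mice per the methods, and chi-square per degree of freedom between replicates was 1.94 to 2.54. Deviations of libraries with equal replicate numbers had correlations from −0.06 to 0.15, which at these counts cannot exclude that the numbers pair libraries. Intervals and limits cover counting error only.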

Additional observations from a re-analysis of the deposited data

How the results depend on the processing

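Leaving out 1 library in turn gave 0 to 2 genes called between time points averaged over genotypes, 0 to 1 in cKOt, 0 to 1 between genotypes at ZT4, 0 to 2 at ZT16, 0 to 1 averaged over times and 0 to 2 for the interaction, against 2, 0, 1, 0, 0 and 0. Each such fit leaves 1 group with a lone library, which is assumed to vary like the other groups. The call of Ednrb was lost without the first Ctrl library at ZT4, either Ctrl library at ZT16, the second cKOt library at ZT4 or either cKOt library at ZT16 (log2 −1.81 to −1.52, edgeR adjusted p 0.0275 to 0.239 over all 8). That of Nr1d2 was lost without either Ctrl library at ZT4, the first Ctrl library at ZT16, the first cKOt library at ZT4 or either at ZT16 (−2.69 to −2.08, adjusted p 0.0149 to 0.239), and that of Gm19950 without any library of its 2 groups (−3.65 to −2.74, adjusted p 0.0290 to 0.308). The share difference by genotype was −0.0917 to −0.0272 percentage points (exact permutation p 0.171 to 0.543). The share difference by time was 0.0762 to 0.127 percentage points (exact permutation p 0.0286 to 0.0571). Every ZT16 library stayed above every ZT4 library, as leaving out a library cannot make separated groups overlap. With so few libraries the exact p moves in coarse steps. The higher p came without either Ctrl library at ZT16, the first cKOt library at ZT4 or either cKOt library at ZT16. Over all 8 libraries the exact permutation p adjusted over 2 comparisons was already 0.0571.

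With no filter on low counts, 19 genes were called for time in Ctrl, 25 in cKOt, 25 averaged over genotypes, 29 for genotype at ZT4, 24 at ZT16, 33 averaged, 20 for the interaction and 8 for the difference between sets of nuclei. Fitting mRNAs and lncRNAs separately gave 4, 1 and, for genotype averaged over times, 1. Requiring 2 Ehd3 UMIs gave 1 for time in Ctrl, 0 averaged, 0 for genotype at ZT4 and 1 for the interaction. DESeq2 gave 0 for genotype at ZT4. Leaving out nuclei with 3 UMIs of the podocyte, mesangial or immune list gave 2 for genotype at ZT4 and 2 averaged, and equal numbers of nuclei per library gave 1 for time and 1 for genotype. In the first of these, 69 nuclei reached 3 UMIs of the podocyte list, and 0 did with Podxl and Synpo left out of it. As endothelium also expresses Podxl, this step removed more than mixed nuclei. Chosen after seeing the data, leaving out the stromal nuclei gave 1 for time in Ctrl, 2 in cKOt and 78 genes higher in all 8 libraries, against 167, or 69 when stromal nuclei were also left out of the Plvap-positive set, and not using Plvap gave 4 for time in Ctrl, 4 in cKOt, 8 averaged, 4 for genotype at ZT4, 10 averaged and 1 for the interaction. The share difference by time was 0.0737 percentage points (exact permutation p = 0.171) thinned to 1500 UMIs and 0.830 (exact permutation p = 0.143) without Plvap, and by genotype 0.0189, the opposite sign to the main value of −0.0664, when thinned. The cause was not tested.

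Among clock genes that were not called between time points, the sign turned for Clock (−0.03, 2 Ehd3 UMIs), Hlf (0.29, equal numbers), Cry2 (−0.49 to 1.94 over left-out libraries, 0.31 and 1.94 without the second Ctrl or cKOt library at ZT4, 0.16 without Plvap), Per3 (−0.14 to 2.65 over left-out libraries, −0.14 and −0.04 without the first cKOt library at ZT4 or ZT16, −0.19 with 2 Ehd3 UMIs, −0.42 without stromal nuclei, −0.01 without Plvap) and Bhlhe40 (−0.18 to 0.10 over left-out libraries, 0.04 unfiltered, 0.09 and 0.10 without the first Ctrl library at ZT4 or ZT16, 0.10 and 0.03 without the second cKOt library at ZT4 or ZT16, 0.20 with 2 Ehd3 UMIs, 0.27 without Plvap). With the replicate number as a block, 3 genes were called for time averaged over genotypes and 0 or 1 in every other contrast, as in the unblocked fit. By their labels the samples share only a number.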

Other observations

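Immune genes had at least 3 UMIs in 3 selected nuclei, and 44 had at least 1. UMIs of 12 cell cycle genes summed to between 5.27 and 50.7 CPM per library, and of 8 genes found none had enough counts to be tested. Of the UMIs in selected nuclei, 86.3% were of mRNAs and 12.0% of lncRNAs, among which Malat1 took 9.05% of all UMIs. Beyond Malat1, the loop of Henle genes Slc12a1, which encodes a sodium-potassium-chloride transporter, and Egf varied most from nucleus to nucleus, with a variance of 33.4 and 21.7 times that of Poisson counts, against a median of 1.20 over 8302 genes. They had 1911 and 745 UMIs, and 18 nuclei had at least 20 UMIs of distal tubule genes.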
